A study of Mus musculus with 8 samples.

Results

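The response of mouse islets to loss of Sirt6 was compared between 2 deletion models: one that removes the gene from the endocrine lineage during development (EKO) and one that removes it from adult beta cells (BKO). The quantity described for each gene is the difference of effects, that is, the log2 fold change of EKO over its controls minus the log2 fold change of BKO over its controls, so that a positive value means a response that was higher in EKO. All 8 of the 8 libraries enter it, 2 in each of 4 groups, and 15041 of the 22609 gene symbols in the count table had enough reads to be tested. The EKO mice were about 2 months old and carried Ngn3-Cre with both Sirt6 alleles floxed (Ngn3-Cre Sirt6 f/f), and their controls carried Ngn3-Cre with wild-type Sirt6 (Ngn3-Cre Sirt6 +/+). The BKO mice carried MIP1-CreERT, a Cre recombinase that works once tamoxifen is given, with both alleles floxed (MIP1-CreERT Sirt6 f/f), and islets were taken 2 weeks after tamoxifen. The BKO controls carried the same transgene, with 1 floxed and 1 wild-type allele in replicate 1 (MIP1-CreERT Sirt6 f/+) and wild-type alleles in replicate 2 (MIP1-CreERT Sirt6 +/+). All animals were males of mixed background aged 8 to 9 weeks, and every group carried a Cre transgene. Whole primary islets were isolated with collagenase, kept for 4 h in medium with 10% serum and lysed, so the RNA comes from all islet cells and not from sorted beta cells. Tamoxifen is not mentioned for the BKO controls. Only the BKO controls, by their genotypes, must be separate animals; elsewhere the spread behind the p-values may be technical.

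SIRT6 is a nuclear NAD-dependent enzyme that removes acetyl groups from histone H3 and represses, among others, genes of glycolysis and of inflammatory signalling. Neurogenin 3 switches on in the progenitors of all islet endocrine cells, so Ngn3-Cre also acts in the forebears of alpha, delta, PP and epsilon cells, and in endocrine cells of the gut. The MIP1 promoter comes from a mouse insulin gene, so MIP1-CreERT acts in beta cells. The models therefore differ at once in the cells that lose Sirt6, in how long they have lacked it and in the transgene, and these cannot be told apart. As background to the transgene, MIP1-CreERT carries a human growth hormone minigene, and the serotonin synthesis enzyme gene Tph1 is a known target of growth hormone and prolactin signalling in beta cells.

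Reads assigned to genes numbered 22592798 and 22662190 in EKO, 23673180 and 22330252 in the EKO controls, 38029994 and 44442165 in BKO, and 43198451 and 37302246 in the BKO controls, so BKO-model values rest on deeper libraries. Sequencers of 2 models are listed in the labels with no library tied to either, so sequencer and deletion model cannot be told apart. Levels are given as CPM, counts scaled by TMM to library size but not to gene length, and so compare libraries for a given gene. Sirt6 itself had 24.2 and 21.6 CPM in EKO against 24.4 and 17.0 in its controls, and 16.8 and 22.8 CPM in BKO against 18.8 and 12.6 in its controls. These values overlapped in both models, and the count covers the whole gene, without showing which exons the reads cover, so it does not test the deletion. Libraries stood apart in several ways. The acinar marker list, which marks exocrine tissue carried over with islets, summed to 2935 and 338 CPM in EKO against 10589 and 767 in its controls, and to 414 and 206 CPM in BKO against 1071 and 864 in its controls, so EKO-model replicates numbered 1 held the most acinar RNA. Tph1 had 0.525 and 2.62 CPM in EKO against 0.123 and 0.0929 in its controls, and 198 and 89.7 CPM in BKO against 25.5 and 335 in its controls, low throughout the Ngn3-Cre libraries and high in the MIP1-CreERT libraries whether or not Sirt6 was deleted. Claudin 8 (Cldn8) had 0.525 and 0.281 CPM in EKO against 0.165 and 0 in its controls, and 229.8 and 103 CPM in BKO against 71.4 and 299 in its controls, with BKO control replicate 1 again the lowest MIP1-CreERT library.

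No gene passed an adjusted p of 0.05 for the difference of effects in edgeR's quasi-likelihood test, the closest being Ambp at an adjusted p of 0.0898, while for every other gene the adjusted p rounded to 1. At an unadjusted p under 0.05 there were 152 genes, 1.01% of those tested, of which 70 were higher in EKO (0.465%) and 82 lower (0.545%). That is fewer than the 752 genes that make up 5% of those tested. DESeq2 called 6 of 18384 genes (0.0326%), 3 with a higher response in EKO (0.0163%) and 3 with a lower one (0.0163%). Among them were Ambp and Ppm1e on the higher side and Ank2, Nxph1 and Lars2 on the lower. limma-voom called 0. A second description used no model of the spread: a gene was counted as separated when all 4 differences between an EKO library and an EKO control library lay above, or all below, the 4 differences in the BKO model. There were 426 separated genes with a higher response in EKO (2.83%) and 483 with a lower one (3.21%). All 6 genes called by DESeq2 were among them, as were 146 of the 152 genes at an unadjusted p under 0.05. Separation uses the same libraries, so this overlap tests nothing. The words higher and lower below describe values, since no gene was called by the edgeR test.

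Most of the 152 genes had effects of opposite sign in the models. For 104 of them (68.4%) the EKO and BKO log2 fold changes had opposite signs, against 35.8% of all genes tested. For 46 the signs were the same with EKO further from 0, and for 2 they were the same with BKO further from 0. These shares describe genes chosen on the same values and carry no test. Across 10938 genes with a mean of at least 5 CPM, the effects of the models, which share no library, had a Pearson r of 0.39 and a Spearman rho of 0.45. These are across genes, which are not independent replicates. Their spread was wider in EKO, with an SD of 0.45 against 0.33 in BKO, and more EKO effects exceeded a log2 value of 1 in size, 424 against 157 genes. Replicates differed more in the EKO model too, by a mean absolute log2 value of 0.49 in EKO and 0.67 in its controls, against 0.32 in BKO and 0.28 in its controls. The plot of both effects shows where the named genes lie.

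**Figure D1:**
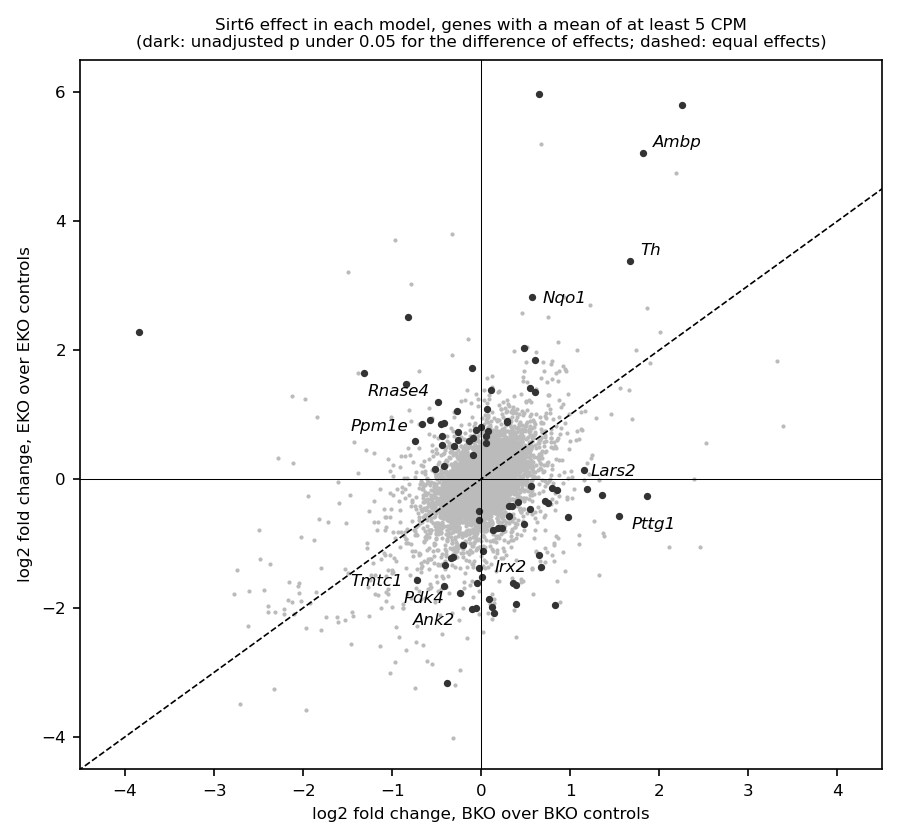
Log2 fold change of each gene in EKO over the EKO controls (vertical) against BKO over the BKO controls (horizontal), for genes with a mean of at least 5 CPM; dark points have an unadjusted p under 0.05 for the difference of effects, the dashed line marks equal effects, and 6 genes lie outside the axes. Ambp and Th stand above the line on the side where both effects are positive, while Ank2 lies below it near a BKO effect of 0.

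A difference of effects can sit in the knockouts or in the controls, because it equals the EKO minus BKO difference of the knockout levels less that of the control levels. Of the 152 genes, 79 had an unadjusted p under 0.05 for the knockout levels alone, 42 for the control levels alone, 13 for both and 18 for neither. Of the 12 genes with the smallest p in each direction, 12 differed in the knockouts alone, 6 in the controls alone and 6 in both. Over all genes the levels themselves differed between models at an unadjusted p under 0.05 for 1208 genes between the knockouts (8.03%) and 833 between the controls (5.54%), whereas the EKO effect did so for 556 genes (3.7%) and the BKO effect for 147 (0.977%). For that reason the difference between the controls is given beside some of the named genes. Where it is not given the controls can still differ, as by -2.48 for Ckb, -1.41 for Morf4l1, 1.37 for Fxyd6 and -0.73 for Lars2.

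**Figure D2:**
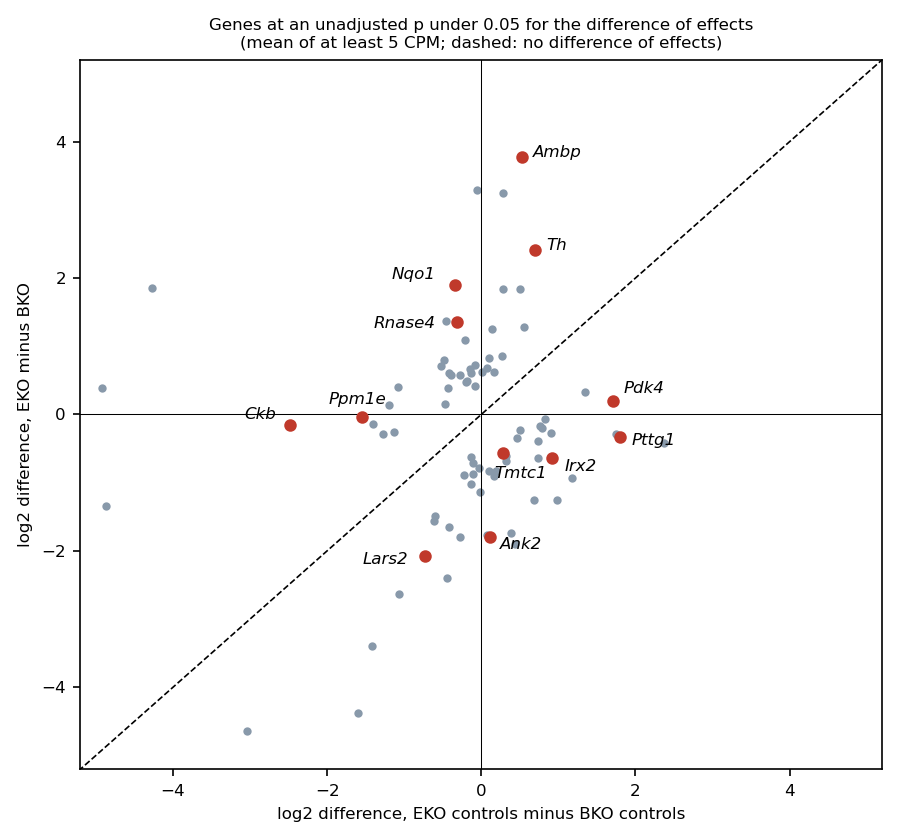
EKO minus BKO log2 difference of levels between the knockouts (vertical) against the same between the controls (horizontal), for the 88 genes with an unadjusted p under 0.05 for the difference of effects and a mean of at least 5 CPM; 4 lie outside the axes and the dashed line marks no difference of effects. Ambp, Th and Ank2 lie near the vertical axis, so their controls differ less than their knockouts, while Ppm1e, Ckb and Pdk4 lie near the horizontal axis, so their knockouts differ less than their controls.

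Ambp had the smallest p of all genes tested for the difference of effects, in the edgeR test. It did not have the largest difference: Ghrl, at -4.67, and Epb4.9, at 3.34, were among genes further from 0. Ambp encodes the precursor of alpha-1-microglobulin, a heme-binding and radical-scavenging plasma protein, and of bikunin. Bikunin is the protease inhibitor light chain of the inter-alpha-trypsin inhibitors, and Ambp is best known as a liver gene. Its level was 925 and 954 CPM in EKO against 27.0 and 29.7 in its controls, and 62.9 and 74.4 CPM in BKO against 17.8 and 21.3 in its controls. Both knockouts were above their controls without overlap, and the EKO libraries were far above every other library. The log2 fold change was 5.05 ± 0.20 (SE) in EKO and 1.81 ± 0.17 in BKO. Only the EKO effect passed the threshold over all genes (adjusted p = 0.00150 by edgeR, n = 2 libraries in each group), against an adjusted p of 0.398 for BKO. The difference of effects was 3.24 ± 0.24, with a range of 3.11 to 3.37 when each library was left out in turn. The controls differed by 0.53. Because Ambp had the smallest p, the 250 bases before its RefSeq start are given (GRCm38.p6, chr4:63154173-63154422, minus strand, printed 5′ to 3′). Capitals mark the only match to the core antioxidant response element TGACNNNGC, on the opposite strand, beginning 139 bases before the start.
Ambp: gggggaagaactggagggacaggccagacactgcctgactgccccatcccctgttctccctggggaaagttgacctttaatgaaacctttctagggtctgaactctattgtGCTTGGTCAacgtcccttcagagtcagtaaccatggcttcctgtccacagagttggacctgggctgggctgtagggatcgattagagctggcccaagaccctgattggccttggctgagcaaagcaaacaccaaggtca
A match to these letters on either strand is present in 10.2% of 32851 mouse promoter windows of this length and says nothing by itself about binding. The same search found 0 matches in the 250 bases before Nqo1, a gene of the antioxidant response described below. It reached no further from the start, so it cannot show that Nqo1 lacks the element.

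Other genes usually linked to liver or plasma lay on both sides of 0. The inter-alpha-trypsin inhibitor list, whose heavy chains are joined to bikunin, had 7 members tested, 5 above and 2 below 0, with a median difference of effects of 0.43 against -0.01 for all genes. At an unadjusted p under 0.05, against 1.01% of all genes, there was 1 member other than Ambp. That member was Itih2, in the opposite direction, with 0.832 and 0.468 CPM in EKO against 3.25 and 1.72 in its controls, and 2.47 and 3.63 CPM in BKO against 2.21 and 2.98 in its controls, low levels at which the EKO libraries were the lowest. Its difference of effects was -2.16 ± 0.78 (unadjusted p = 0.0304). Itih1 reached 7.49 CPM in EKO replicate 2 alone and at most 0.604 CPM in every other library. Prothrombin (F2) had 13.0 and 16.7 CPM in EKO against 1.40 and 3.35 in its controls, and 5.97 and 3.61 CPM in BKO against 1.20 and 1.42 in its controls, above the controls in both models. Its difference of effects, 0.78 ± 0.70 (unadjusted p = 0.302), was little larger than its standard error.

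Tyrosine hydroxylase (Th), the rate-limiting enzyme of catecholamine synthesis, which occurs in a minority of mouse beta cells, had values above the controls in both models. It had 279 and 421 CPM in EKO against 38.1 and 29.2 in its controls, and 54.4 and 77.1 CPM in BKO against 24.1 and 17.3 in its controls. Each knockout was above its controls without overlap, and EKO was the highest group. The log2 fold change was 3.38 ± 0.33 in EKO and 1.67 ± 0.31 in BKO. That left a difference of effects of 1.71 ± 0.43 (unadjusted p = 0.00611). In the list of catecholamine and serotonin metabolism, 10 of 14 members tested were above 0, with a median of 0.26. Th was the 1 member at an unadjusted p under 0.05, against 1.01% of all genes. The Th promoter is shown because a cAMP response element there is well known; the 250 bases before the RefSeq start (GRCm38.p6, chr7:142899996-142900245, minus strand, 5′ to 3′) hold the palindrome TGACGTCA, in capitals, beginning 45 bases before the start.
Th: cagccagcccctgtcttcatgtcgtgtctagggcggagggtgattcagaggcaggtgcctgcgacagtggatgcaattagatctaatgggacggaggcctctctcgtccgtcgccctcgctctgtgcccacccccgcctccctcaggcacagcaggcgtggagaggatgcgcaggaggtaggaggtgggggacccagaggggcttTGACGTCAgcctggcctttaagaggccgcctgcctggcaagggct
That motif is present in 1.55% of the same windows.

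**Figure D3:**
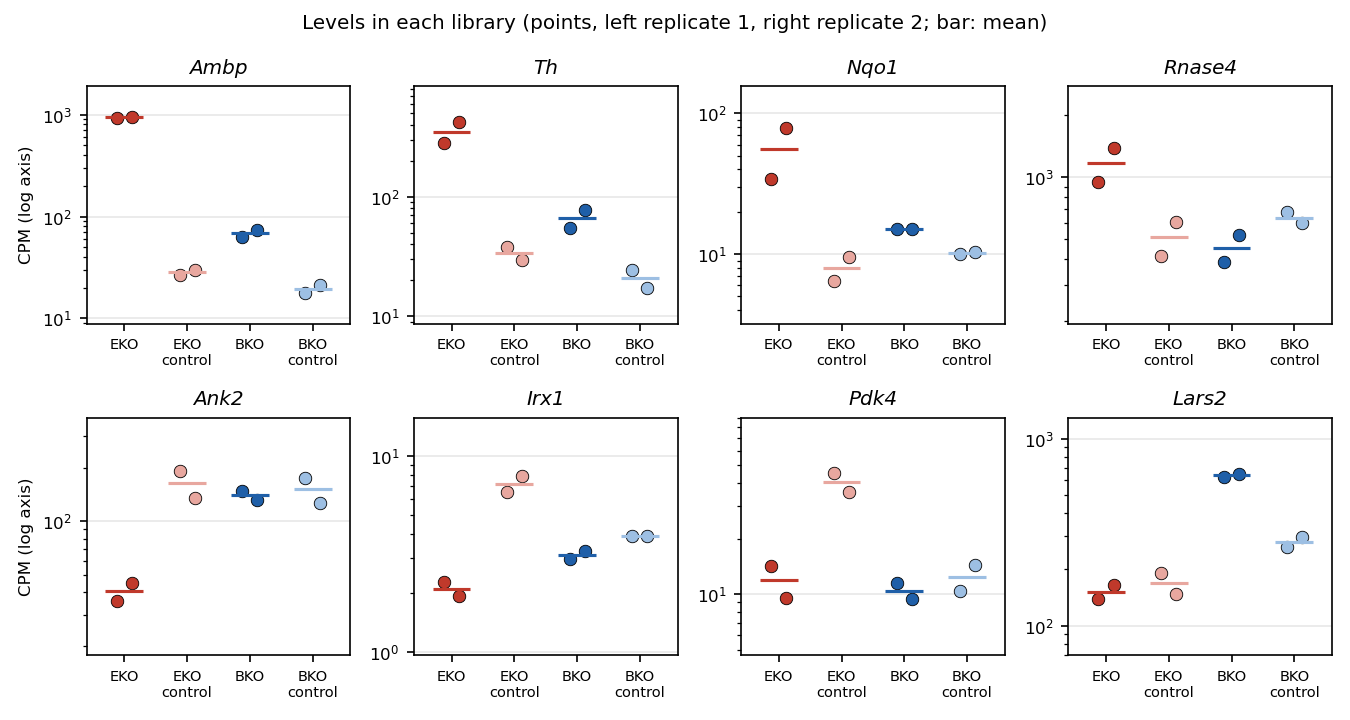
Level of 8 genes in each library in CPM on a log axis, with points for replicates 1 and 2 and a bar for their mean, in EKO, EKO controls, BKO and BKO controls. Ambp, Th, Nqo1 and Rnase4 are highest in EKO, Ank2 and Irx1 are lowest in EKO, the EKO controls are the highest group for Pdk4, and BKO is the highest for Lars2.

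Angiogenin (Ang) and ribonuclease 4 (Rnase4), secreted members of the ribonuclease A superfamily encoded at one locus, were higher in EKO and lower in BKO than in their controls. Rnase4 had 946 and 1386 CPM in EKO against 414 and 609 in its controls, and 389.5 and 521 CPM in BKO against 676 and 597 in its controls. EKO lay above its controls and BKO below its controls, without overlap in either. Ang had 106 and 143 CPM in EKO against 66.2 and 71.2 in its controls, and 49.8 and 67.0 CPM in BKO against 82.1 and 77.2 in its controls, in the same arrangement. The differences of effects were 1.67 ± 0.41 for Rnase4 (unadjusted p = 0.00585) and 1.30 ± 0.30 for Ang (unadjusted p = 0.00381), and the controls differed by -0.32 and -0.21. The genes are not independent measurements, because RefSeq gives them a shared start: the table has 1 window for Ang and 2 for Rnase4, of which 1 is the same. How the counting treated reads shared by the genes is not given in the sources used here. The shared window (GRCm38.p6, chr14:51090827-51091076, plus strand, 5′ to 3′) is printed because one promoter serves both, and it holds neither of the motifs searched.
Ang and Rnase4: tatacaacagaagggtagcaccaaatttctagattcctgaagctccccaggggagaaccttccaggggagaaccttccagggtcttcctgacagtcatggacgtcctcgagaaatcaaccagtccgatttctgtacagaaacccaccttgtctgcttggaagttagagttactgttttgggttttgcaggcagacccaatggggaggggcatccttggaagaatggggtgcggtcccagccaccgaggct

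Among genes of the oxidative stress response, Nqo1, a quinone reductase and classic target of the transcription factor NRF2, had 34.3 and 78.3 CPM in EKO against 6.42 and 9.53 in its controls, and 15.0 and 15.2 CPM in BKO against 9.94 and 10.3 in its controls. EKO was above every other library, with a wide gap between its replicates, and BKO was above its controls by less. This gave a difference of effects of 2.24 ± 0.57 (unadjusted p = 0.00656). Gclm, a subunit of the enzyme that starts glutathione synthesis, had 124 and 97.5 CPM in EKO against 81.0 and 91.5 in its controls, and 77.1 and 76.7 CPM in BKO against 80.8 and 92.0 in its controls. EKO was the highest group for Gclm by a small margin, and its difference of effects was 0.53 ± 0.23, with an unadjusted p of 0.0632. Of 25 members of the NRF2 list tested, 17 were above 0 and 8 below, and 1 had an unadjusted p under 0.05, against 1.01% of all genes. The list median of 0.18 became -0.14 without EKO replicate 1. Glutathione peroxidase 2 (Gpx2) had 86.2 and 179 CPM in EKO against 37.2 and 85.7 in its controls, and 36.3 and 44.0 CPM in BKO against 27.3 and 35.3 in its controls, with the lower EKO value just above the higher value of its controls.

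Genes of the neuronal cytoskeleton and cell adhesion, many of which islet cells also express, lay on both sides of 0. Ank2 encodes ankyrin-B, an adaptor that ties membrane proteins to the spectrin skeleton, and had 35.6 and 45.3 CPM in EKO against 191 and 135 in its controls, and 148 and 132 CPM in BKO against 175 and 127 in its controls. EKO was far below the other 6 libraries, which overlapped each other. Its log2 fold change was -2.01 ± 0.26 in EKO and -0.11 ± 0.25 in BKO. The difference between these was -1.90 ± 0.35 (unadjusted p = 0.00135). Neurexophilin 1 (Nxph1), a secreted ligand of neurexins, had 1.09 and 0.702 CPM in EKO against 6.87 and 5.86 in its controls, and 2.31 and 2.02 CPM in BKO against 1.18 and 1.89 in its controls, with the EKO controls as the high group and a difference between the controls of 2.05. Mapt, which encodes the microtubule protein tau, was higher in EKO, with 76.3 and 74.1 CPM in EKO against 32.9 and 37.8 in its controls, and 43.9 and 55.1 CPM in BKO against 49.6 and 44.7 in its controls. The BKO libraries lay on both sides of their controls. The difference of effects for Mapt was 1.02 ± 0.24 (unadjusted p = 0.00415). Cyfip2, a subunit of the WAVE complex that drives actin branching, had 753 and 735 CPM in EKO against 394 and 458 in its controls, and 459 and 441 CPM in BKO against 424 and 477 in its controls, again with EKO above all others and BKO among its controls. Its difference of effects was 0.81 ± 0.23 (unadjusted p = 0.0104). Of the 23 list members tested, 13 were above 0 and 10 below, 2 in each direction at an unadjusted p under 0.05, against 0.465% of all genes higher and 0.545% lower, and the median was 0.08.

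Alpha cell markers had a lower response in EKO as a group. Of 15 tested, 13 were below 0 and 2 above, against 7701 below and 7340 above among all genes, and the median difference of effects was -0.85 against -0.01. The median log2 fold change was -0.87 in EKO and -0.04 in BKO. The controls differed by a median of 0.62 and the knockouts by a median of -0.37, so the EKO controls were also the highest group. Averaged over the list, log2 CPM was 4.77 and 4.56 in EKO against 5.16 and 5.72 in its controls, and 4.82 and 4.81 in BKO against 4.68 and 4.98 in its controls. Irx1 and Irx2, homeobox transcription factors of alpha cells, were the 2 members at an unadjusted p under 0.05, both lower, against 0.545% of all genes. Irx1 had 2.28 and 1.92 CPM in EKO against 6.54 and 7.85 in its controls, and 2.97 and 3.27 CPM in BKO against 3.87 and 3.91 in its controls. The EKO libraries were the lowest and the EKO controls the highest, with no overlap. Irx2 had 7.31 and 3.79 CPM in EKO against 16.3 and 17.7 in its controls, and 9.46 and 7.92 CPM in BKO against 7.29 and 10.6 in its controls, where the EKO values reached below the BKO-model values and overlapped them. The differences of effects were -1.46 ± 0.46 for Irx1 (unadjusted p = 0.0173) and -1.57 ± 0.53 for Irx2 (unadjusted p = 0.0239). The glucagon gene Gcg had 22054 and 8892 CPM in EKO against 27810.2 and 36985 in its controls, and 16167 and 16629 CPM in BKO against 13187 and 20509 in its controls. Its EKO replicates were far apart, replicate 1 above and replicate 2 below all 4 BKO-model values, and the difference of effects was -1.03 ± 0.71 (unadjusted p = 0.193). In whole islets, alpha cell number and RNA per alpha cell cannot be told apart, in EKO or in its controls. The median was -0.34 without EKO control replicate 2, the library with the most Gcg.

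Among the other endocrine cells, the ghrelin gene Ghrl of epsilon cells had 1.31 and 3.89 CPM in EKO against 4.44 and 8.55 in its controls, and 4.98 and 2.24 CPM in BKO against 0.263 and 0.440 in its controls. BKO was above its controls and EKO below its controls, all 8 values being low. For Ghrl the difference of effects was -4.67 ± 1.05 (unadjusted p = 0.00369). The knockouts differed by -0.47 and the controls by 4.20, so it lay mostly between the controls. Of 14 markers of delta, PP and epsilon cells tested, 5 were above and 9 below 0, with a median of -0.21. Beta cell identity genes gave a median of -0.06, with 12 of 28 above 0 and 0 at an unadjusted p under 0.05, and genes of the insulin granule and exocytosis gave 0.01, with 15 of 29 above 0. The median of the beta cell identity list was 0.60 without EKO control replicate 2. The progenitor and dedifferentiation list had a median of 0.19.

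Genes of fatty acid oxidation and targets of the PPAR receptors leaned the other way, with 23 of 28 members above 0 and a median of 0.19. An unadjusted p under 0.05 was seen for 3 members, which did not share a direction, against 1.01% of all genes. The list median was 0.06 without EKO replicate 2, with 16 of 28 above 0, and 0.10 without BKO control replicate 2. Cpt1a, the enzyme that commits long-chain fatty acids to the mitochondria, had 85.8 and 102 CPM in EKO against 66.1 and 54.9 in its controls, and 36.1 and 41.1 CPM in BKO against 40.3 and 42.1 in its controls. EKO was the highest group and BKO overlapped its controls. Its difference of effects was 0.73 ± 0.23 (unadjusted p = 0.0179). Pdk4, the kinase that shuts down pyruvate dehydrogenase, had 14.3 and 9.55 CPM in EKO against 45.3 and 35.6 in its controls, and 11.5 and 9.34 CPM in BKO against 10.3 and 14.3 in its controls. Here the EKO controls stood above the other 6 libraries, the knockouts differed by 0.19 and the controls by 1.71, and the difference of effects was -1.52 ± 0.42 (unadjusted p = 0.00964). Lipoprotein lipase (Lpl) had 139.6 and 109.8 CPM in EKO against 249.9 and 377 in its controls, and 158 and 123 CPM in BKO against 163 and 207 in its controls, with the EKO controls highest again and a difference of effects of -0.93 ± 0.38 (unadjusted p = 0.0465).

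Cholesterol synthesis and uptake genes were below 0 in 18 of 22 cases, with a median of -0.29, a median log2 fold change of -0.17 in EKO and 0.09 in BKO, and 4 separated members, all lower, against 3.21% of all genes separated in that direction. With 1 library left out, the list median ranged over -0.53 to -0.16. Dhcr7, the enzyme of the last step of cholesterol synthesis, had 22.4 and 18.8 CPM in EKO against 24.2 and 28.4 in its controls, and 42.9 and 32.4 CPM in BKO against 27.0 and 29.6 in its controls. EKO was below its controls and BKO above its controls, without overlap. For Dhcr7 the difference of effects was -0.76 ± 0.30 (unadjusted p = 0.0389). Farnesyl diphosphate synthase (Fdps) gave -0.52 ± 0.27 (unadjusted p = 0.0949) and squalene synthase (Fdft1) gave -0.42 ± 0.21 (unadjusted p = 0.0924), both separated. Glycolysis and HIF1 targets, which SIRT6 is known to repress in other tissues, were below 0 in 18 of 22 cases with a median of -0.40, a median log2 fold change of -0.40 in EKO and 0.03 in BKO, and 0 separated members. That median was above 0 without EKO control replicate 1, at 0.46, and without both EKO-model libraries numbered 1, at 0.07.

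Several genes had BKO values above the controls of that model and EKO values near or below theirs. Lars2, the mitochondrial leucyl-tRNA synthetase, had 139 and 164 CPM in EKO against 191 and 147 in its controls, and 625 and 649 CPM in BKO against 265 and 297 in its controls. BKO was above the other 6 libraries and the EKO values overlapped their controls. Its log2 fold change was -0.15 ± 0.19 in EKO and 1.18 ± 0.19 in BKO, a difference of -1.34 ± 0.26 (unadjusted p = 0.00183). Lsm6, a subunit of the LSM ring that binds U6 RNA and decapping substrates, had 31.9 and 28.5 CPM in EKO against 35.5 and 32.4 in its controls, and 57.3 and 50.0 CPM in BKO against 25.8 and 33.9 in its controls. Gcdh, the mitochondrial glutaryl-CoA dehydrogenase, had 26.8 and 27.4 CPM in EKO against 31.6 and 28.0 in its controls, and 53.7 and 42.5 CPM in BKO against 24.9 and 30.7 in its controls. For both genes BKO was the highest group and the other 6 libraries lay between 24.9 and 35.5 CPM. The differences of effects were -1.02 ± 0.27 for Lsm6 (unadjusted p = 0.00792) and -0.93 ± 0.27 for Gcdh (unadjusted p = 0.0131). P2ry14, the receptor for UDP-glucose, had 1.01 and 1.69 CPM in EKO against 2.67 and 2.46 in its controls, and 9.05 and 4.93 CPM in BKO against 2.98 and 2.17 in its controls, low levels at which BKO was the highest group. Pttg1, which encodes securin, the inhibitor of separase, had 8.67 and 5.81 CPM in EKO against 7.69 and 13.99 in its controls, and 10.0 and 8.21 CPM in BKO against 3.52 and 2.72 in its controls, and here the BKO controls were the low group, the controls differing by 1.79 and the knockouts by -0.33.

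For other genes the controls differed by more than the knockouts. Ppm1e, a nuclear protein phosphatase of the PPM family that acts on CaM kinases and PAK, had 22.0 and 24.6 CPM in EKO against 11.4 and 14.6 in its controls, and 23.4 and 24.4 CPM in BKO against 36.3 and 39.6 in its controls. EKO was above its controls and BKO below its controls, and the knockouts had overlapping levels. The difference of effects was 1.51 ± 0.27 (unadjusted p = 0.00110), the controls differed by -1.55 and the knockouts by -0.03. Brain-type creatine kinase (Ckb) had 61.5 and 49.2 CPM in EKO against 17.0 and 22.7 in its controls, and 29.3 and 93.9 CPM in BKO against 118 and 104 in its controls, with the same arrangement of the controls and BKO replicates that were far apart. Morf4l1, a chromodomain subunit of histone acetyltransferase and deacetylase complexes, had 22.2 and 18.6 CPM in EKO against 8.97 and 6.78 in its controls, and 21.4 and 23.8 CPM in BKO against 21.6 and 20.2 in its controls, where the EKO controls were low and the other 6 libraries overlapped. Few reads limited a pair of further genes. Nr1i2, the xenobiotic receptor PXR, had 2.98 and 11.5 CPM in EKO against 0.0411 and 0.0465 in its controls, and 0.991 and 0.626 CPM in BKO against 0.131 and 0.595 in its controls, with so few reads in the EKO controls (1 in each) that its fitted difference of 6.10 ± 1.48 is poorly set. Igfbpl1 had 35 and 10 reads in EKO and 0 and 0 in the EKO controls, against 11 and 31 in BKO and 19 and 20 in the BKO controls, and no fold is given for it.

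A further set was lowest in EKO, with overlap among the other groups for some genes and not for others. The interleukin 18 gene Il18 had 0.306 and 0.796 CPM in EKO against 2.72 and 6.55 in its controls, and 5.62 and 3.88 CPM in BKO against 4.66 and 3.42 in its controls. EKO was below the other 6 libraries, and the difference of effects was -3.30 ± 0.91 (unadjusted p = 0.00959). Asb4, an adaptor of a ubiquitin ligase, had 5.03 and 2.57 CPM in EKO against 19.2 and 10.1 in its controls, and 14.1 and 14.2 CPM in BKO against 14.6 and 6.99 in its controls, and its EKO values were likewise the lowest. Tmtc1, an O-mannosyltransferase of the endoplasmic reticulum, had 32.4 and 27.8 CPM in EKO against 91.7 and 86.9 in its controls, and 40.7 and 48.2 CPM in BKO against 79.3 and 67.6 in its controls. Both knockouts lay below their controls, EKO further, with a log2 fold change of -1.57 ± 0.17 in EKO and -0.73 ± 0.16 in BKO and a difference of effects of -0.84 ± 0.23 (unadjusted p = 0.00905). Cd59a, an inhibitor of the complement attack complex, gave -2.11 ± 0.73 (unadjusted p = 0.0260), with the EKO controls highest. On the opposite side, the tetraspanin Cd81 had 190.0 and 169 CPM in EKO against 118 and 54.5 in its controls, and 43.1 and 57.2 CPM in BKO against 61.4 and 59.9 in its controls. EKO was the highest group, and its difference of effects was 1.34 ± 0.50 (unadjusted p = 0.0334). The long non-coding RNA Snhg11 had 2.28 and 3.09 CPM in EKO against 5.56 and 42.8 in its controls, and 57.8 and 54.3 CPM in BKO against 71.1 and 75.7 in its controls, but its EKO controls were so far apart that the difference of effects, -2.78 ± 1.14, came to -0.66 without EKO control replicate 2. Emr1, which marks macrophages, had 22.2 CPM in EKO control replicate 1 and at most 5.85 CPM in the other 7 libraries. C1qa, a complement subunit made by macrophages, had 104 and 89.6 CPM in EKO against 113 and 62.0 in its controls, and 83.3 and 70.6 CPM in BKO against 31.8 and 37.4 in its controls. BKO was above its controls, EKO overlapped its controls, and the difference of -1.01 ± 0.41 (unadjusted p = 0.0454) was -0.55 without EKO control replicate 1.

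**Figure D4:**
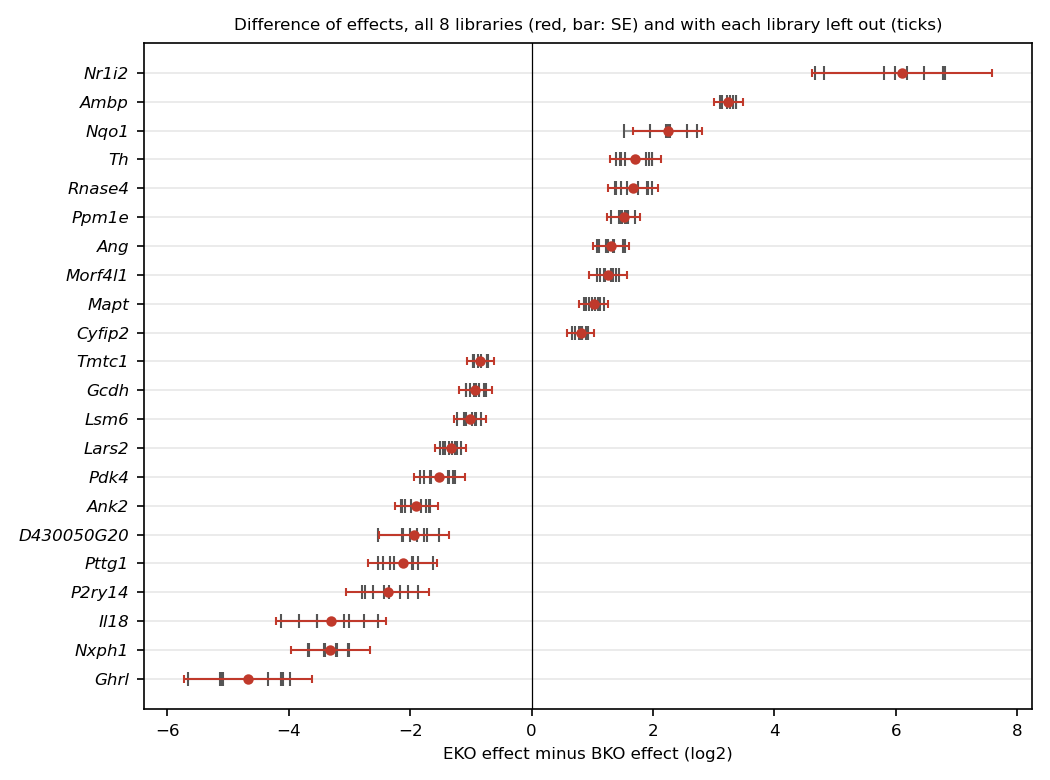
Difference of effects of 22 genes among the 24 with the smallest p, in log2 units, with all 8 libraries (red points, bars of 1 SE) and with each library left out in turn (grey ticks). All values of a gene stay on one side of 0, with those of Nr1i2 and Ghrl spread the widest. All 24 genes were separated, so the constant sign follows from how they were chosen and tests nothing.

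Ranked by size among separated genes with a mean of at least 5 CPM, further genes came forward, several of them set by single libraries. Epb4.9, which encodes the actin-bundling protein dematin, had 17.8 and 14.1 CPM in EKO against 3.46 and 2.09 in its controls, and 0.966 and 2.29 CPM in BKO against 4.44 and 1.32 in its controls. EKO was above the other 6 libraries, whose values overlapped, and the difference of effects was 3.34 ± 0.98 (unadjusted p = 0.0128), or 2.22 without BKO control replicate 1. Vipr2, a receptor for vasoactive intestinal peptide, had 12.1 and 12.6 CPM in EKO against 1.36 and 6.37 in its controls, and 1.37 and 2.60 CPM in BKO against 3.50 and 2.98 in its controls. Fmo2, a flavin monooxygenase, had 13.7 and 11.1 CPM in EKO against 2.96 and 4.55 in its controls, and 5.52 and 4.12 CPM in BKO against 3.52 and 6.81 in its controls. For both genes EKO was the highest group. Their differences were 2.39 for Vipr2 (unadjusted p = 0.0518) and 1.82 ± 0.61 for Fmo2 (unadjusted p = 0.0224). The neutral amino acid transporter Slc6a19 had 63.2 and 15.3 CPM in EKO against 6.79 and 18.4 in its controls, and 3.69 and 4.57 CPM in BKO against 9.32 and 11.3 in its controls, so that its difference of 2.96 ± 1.02 was 1.60 without EKO replicate 1. On the lower side, Celsr1, a planar cell polarity cadherin, had 6.61 and 3.37 CPM in EKO against 6.91 and 5.07 in its controls, and 11.1 and 22.2 CPM in BKO against 3.92 and 5.28 in its controls. BKO was the highest group, and the difference of effects was -2.12 ± 0.69 (unadjusted p = 0.0198). The receptor phosphatase gene Ptprd gave -2.23 ± 0.86, and -1.08 without EKO control replicate 2. Irg1, whose enzyme makes itaconate in activated macrophages, had 0.700 and 0.702 CPM in EKO against 3.004 and 1.39 in its controls, and 50.1 and 23.8 CPM in BKO against 34.0 and 22.5 in its controls. Fbxw24, an F-box protein gene, had 0.131 and 0.0468 CPM in EKO against 0.206 and 0.0929 in its controls, and 41.8 and 23.7 CPM in BKO against 3.68 and 14.1 in its controls. Both were far higher in the MIP1-CreERT libraries with or without Sirt6. Serpina3m, a secreted serpin gene of the same kind, had 0.525 and 0.234 CPM in EKO against 0.0411 and 0.0465 in its controls, and 2.31 and 16.4 CPM in BKO against 24.4 and 7.95 in its controls. The transcript D430050G20 had 3.28 and 1.64 CPM in EKO against 8.81 and 10.9 in its controls, and 6.71 and 5.03 CPM in BKO against 5.89 and 6.34 in its controls, with the EKO libraries lowest, and a difference of -1.94 ± 0.58 (unadjusted p = 0.0136). Beta-s, a haemoglobin beta chain gene, had 2.45 and 11.8 CPM in EKO against 0.535 and 2.42 in its controls, and 0.356 and 3.59 CPM in BKO against 8.91 and 47.8 in its controls, values that differed between replicates as much as between groups.

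The authors deposited a table of genes for each model, with 243 symbols for EKO and 99 for BKO, and 23 in both. Of the 242 EKO genes tested here, 62 had an unadjusted p under 0.05 for the difference of effects and 209 had the same sign in the BKO effect computed here. Of the 99 BKO genes, 13 had such a p and 79 had the same sign in the EKO effect computed here. Over all genes tested, 1.01% had such a p and 35.8% had effects of opposite sign in the models. The tables were chosen on these samples, so these counts describe them and test nothing. For all 23 shared genes the authors' log2 fold changes had one sign in both tables, and for 21 the EKO value was further from 0. Sizes in those tables are not on the scale of the values computed here, and the order of the models can differ. For C4bp the authors give 0.83 in EKO and 0.78 in BKO, against 1.97 and 2.19 computed here. For Ambp the authors' deposited tables give 4.40 in the EKO table and 1.42 in the BKO table, against 5.05 and 1.81 computed here. For Th they give 2.49 in the EKO table and 1.10 in the BKO table, against 3.38 and 1.67 computed here. Smaller gaps were seen for the shared genes Fxyd6, a regulator of the sodium pump, with 1.04 in the EKO table and 0.76 in the BKO table in the authors' deposited tables, and Tfrc, the transferrin receptor, with -0.97 in the EKO table and -0.61 in the BKO table. From the counts, Fxyd6 had 239 and 274 CPM in EKO against 87.1 and 118 in its controls, and 87.3 and 69.1 CPM in BKO against 37.7 and 41.6 in its controls, and both knockouts lay above their controls with a difference of effects of 0.34 ± 0.29 (unadjusted p = 0.287). Tfrc had 114 and 83.0 CPM in EKO against 242 and 208 in its controls, and 89.8 and 102 CPM in BKO against 187 and 139 in its controls, and both knockouts lay below their controls with -0.43 ± 0.32 (unadjusted p = 0.227). The gene Specc1, in both tables, had 60.9 and 77.5 CPM in EKO against 31.0 and 22.3 in its controls, and 61.7 and 90.1 CPM in BKO against 23.5 and 24.5 in its controls, above the controls in both models, with a difference of effects of -0.28 ± 0.36. The thioredoxin inhibitor Txnip had 313 and 782 CPM in EKO against 144 and 239 in its controls, and 411 and 523 CPM in BKO against 205 and 308 in its controls, with EKO replicates far apart and a difference of effects of 0.65 ± 0.67 (unadjusted p = 0.369).

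Lists of stress and signalling genes differed little or moved with single libraries. The median difference of effects was 0.13 for 27 p53 targets and apoptosis genes, with 19 above 0, and Bid, a pro-apoptotic BCL2 family member, had 21.3 and 22.1 CPM in EKO against 11.6 and 13.5 in its controls, and 23.8 and 24.0 CPM in BKO against 18.5 and 18.0 in its controls, both knockouts being above their controls. It was -0.20 for 26 genes of the unfolded protein response, with 20 below 0, and -0.27 for 32 cell cycle genes, with 22 below 0. NF-kB and cytokine genes had a median of -0.47, with 25 of 28 below 0 and 0 separated, but the controls differed by a median of -1.46. The median for NF-kB was 0.49 without EKO control replicate 1 and 0.13 without both EKO-model libraries numbered 1. Interferon response genes had a median of 0.12, and their controls differed by -2.03, as in the chemokine gene Cxcl10, with 3.50 and 7.72 CPM in EKO against 4.98 and 4.41 in its controls, and 466 and 228 CPM in BKO against 168 and 138 in its controls, high in every MIP1-CreERT library. Growth hormone and prolactin response genes had a median of -0.06, ChREBP targets and alpha-arrestins -0.01, and iron uptake and storage genes -0.16. Immediate early and heat shock genes had a median of 0.73, which was -0.72 without EKO replicate 1.

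Markers of non-endocrine cells followed the libraries that stood apart. The median was 0.21 for 32 acinar markers, and it was -2.48 without EKO replicate 1 and 3.07 without EKO control replicate 1. It was -0.57 for 20 markers of stellate cells and fibroblasts, which summed to 2494 and 629 CPM in EKO against 5226 and 469 in its controls, and to 656 and 763 CPM in BKO against 937 and 538 in its controls. That median was 3.77 without EKO control replicate 1 and 0.67 under limma-voom. Immune markers gave -1.07, with 19 of 28 below 0, 0.75 without EKO control replicate 1 and 0.06 under limma-voom. Their sums were 489 and 547 CPM in EKO against 1127 and 358 in its controls, and 673 and 416 CPM in BKO against 553 and 355 in its controls. The part of these cells in the results above was not tested. Duct markers gave -0.14, endothelial markers -0.05 and Schwann cell and neuron markers 0.00, while the red blood cell list had 1 member tested.

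**Figure D5:**
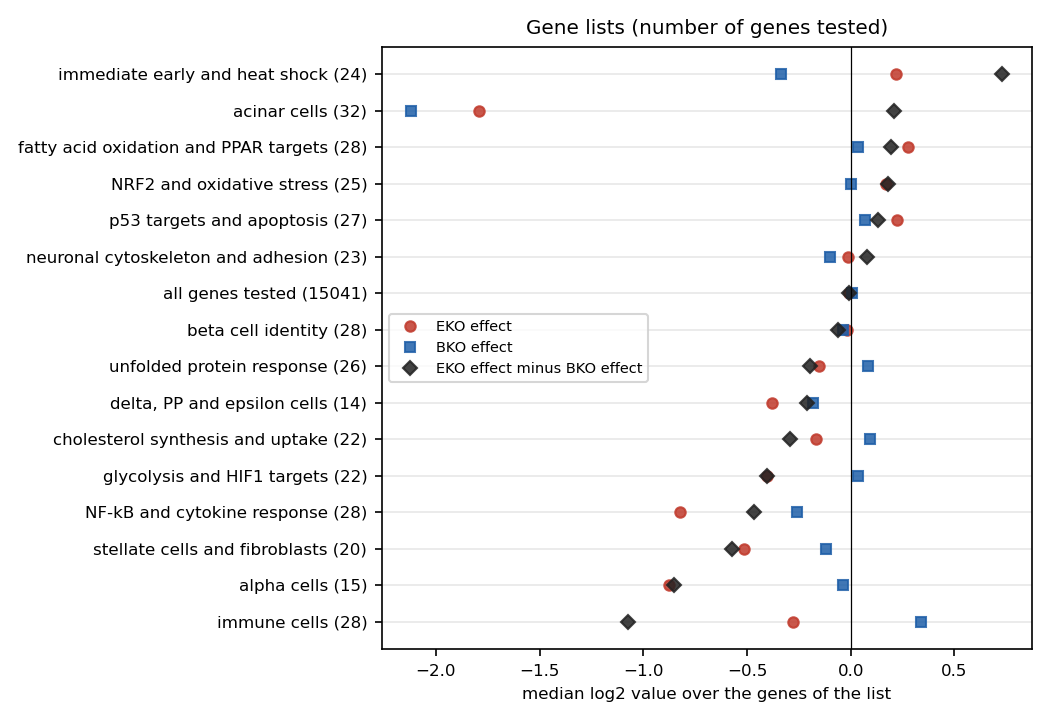
Median log2 value over the tested genes of each list (number in brackets) for the EKO effect (circles), the BKO effect (squares) and the difference of effects (diamonds), with all genes tested for reference. The alpha cell list lies at -0.85 for the difference and -0.04 for the BKO effect, and the immune list lies furthest below 0 for the difference of effects.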

How the data were processed

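A stranded poly(A) kit was used on about 100 ng of RNA of primary islets, per the labels' protocols. The authors deposited raw counts per gene symbol for 8 libraries. TopHat, HTSeq and the mouse build mm9 are named, per the submitters' processing notes; whether the counting used strand was not given in the sources used here (versions likewise), so overlapping and antisense genes, and genes with near-identical copies such as Rps4y2, are uncertain. HTSeq's classes of reads that name no gene were left out of library sizes and tests: reads with several alignments made up 31.6% to 39.7% of each library, reads outside genes 8.19% to 11.1% and ambiguous reads 0.105% to 0.127%. The deposited tables of each model hold, per the file headers, a log2 fold change, a p-value, a mean normalised signal and test scores (a standard error and a statistic); only the log2 values are shown, as the authors'. In the count table, 25 symbols had been turned into dates.

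The difference of effects was tested with edgeR 4.0.16 in R 4.3.3 (glmQLFit and glmQLFTest, two-sided, TMM scaling, filterByExpr with a count minimum of 10) in one fit of 4 group means over all 8 libraries, with 4 residual degrees of freedom. Benjamini-Hochberg adjusted p-values are over all 15041 genes tested, with a threshold of 0.05. Values after ± are standard errors of the log2 value, taken as its absolute size over the square root of the quasi-likelihood F statistic. They come from the same test as the p-value and are not a separate measure of spread. Separation used log2 CPM with a prior count of 2. The script was tested on simulated data. Promoter sequences come from RefSeq (GRCm38.p6), found by symbol for 49 of 67 genes named; no coordinates of the count table's build are given. Alternatives were DESeq2 1.42.0, its size factors, limma-voom (limma 3.58.1) with and without quality weights, no count filter, robust moderation, a replicate block, acinar genes as a covariate or left out, another prior count for the separated genes, and each library left out in turn. Leaving out both EKO-model libraries numbered 1 was added after seeing the data. Replicates of a group differed beyond sampling noise (chi-square per degree of freedom 128 in EKO, 223 in the EKO controls, 89.6 in BKO and 70.3 in the BKO controls), which shows only that no library was a copy of its partner, not that they came from separate animals.

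The genes and the 29 gene lists (652 symbols, 611 tested) were chosen with earlier results of these data known. Genes were named if among the 12 smallest p-values in each direction, the 10 largest differences in each direction among separated genes with a mean of at least 5 CPM, the 3 smallest p-values of a list, genes of earlier interest, or genes in both authors' tables, at most 20. Other genes were chosen after their values were seen. Of the genes the rule gave, those most informative for each role are described, and 1 is not reported here.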

Additional observations from a re-analysis of the deposited data

How the results depend on the processing

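edgeR called 0 genes under every alternative it was run with and DESeq2 called 6; 0 genes were called with any 1 library left out. Genes at an unadjusted p under 0.05 numbered 152, and 99 with limma-voom quality weights (44 higher, 55 lower), 442 with the acinar level as a covariate (193 higher, 249 lower), 684 without both EKO-model libraries numbered 1 (409 higher and 275 lower), and 81 to 596 with 1 library left out: 313 without EKO replicate 1 (96 higher, 217 lower), 584 without EKO control replicate 1 (425 higher, 159 lower), 596 without EKO control replicate 2 (225 higher, 371 lower), 81 without BKO replicate 1 (43 higher, 38 lower) and 84 without BKO control replicate 1 (52 higher, 32 lower). The replicate number used as a block gave 172 genes and 0 called. Deviations of same-numbered libraries correlated between -0.12 and 0.62 across the 6 pairs of groups, above 0.1 in 4 of them. The highest value, 0.62, was between EKO and its own controls, against 0.16 between BKO and its controls. The numbers were not taken to pair the samples. The block was shared by both models, so a pairing within the EKO model alone was not tested. Under the block the immune median was 0.26. Separated genes numbered 1052 to 2620 higher and 865 to 2744 lower with a library left out, where fewer samples must be ordered.

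Of 67 named genes, 60 kept their sign under all 18 alternatives. Among the 60 are Krtap13-1 and Igfbpl1, for which no difference of effects is given because a group had no reads. Many of the 67 genes were named for a small p or for being separated, so a kept sign partly follows from that choice. With 1 library left out, Sirt6 ranged over -0.50 to 0.0686, above 0 without EKO control replicate 1, BKO replicate 2 or BKO control replicate 2, and it was 0.0102 without both EKO-model libraries numbered 1. Specc1 ranged over -0.53 to 0.0150, above 0 without BKO replicate 2, and was 0.13 without those EKO-model libraries. Itih1 (-1.52 to 3.87) and Txnip (-0.16 to 1.17) were below 0 without EKO replicate 2, Anks4b (-3.43 to 8.57) and Tmem159 (-1.50 to 9.63) without BKO control replicate 1, and Abca14 (-0.78 to 2.12) without BKO control replicate 2. List medians ranged, with 1 library left out, over -1.12 to -0.34 (alpha), -0.57 to 0.60 (beta identity), -0.14 to 0.32 (NRF2), -1.59 to 0.75 (immune), -0.72 to 2.06 (immediate early), -2.48 to 3.07 (acinar), -0.85 to 0.46 (glycolysis), -1.37 to 0.49 (NF-kB), 0.06 to 0.29 (fatty acid oxidation), -0.49 to 0.20 (delta, PP and epsilon), -0.30 to 0.31 (neuronal) and -1.94 to 3.77 (stellate); the immune median was 0.85 without both EKO-model libraries numbered 1. The cause was not tested. With 2 libraries a group and 4 residual degrees of freedom, the median standard error of a difference was 0.36.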

Other observations

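Some neighbouring genes of chromosome 7 differed widely between the models, while other measured genes of the same stretch differed little. Those described were chosen after their values were seen. Tmem159 had 27.1 and 31.9 CPM in EKO against 19.3 and 23.0 in its controls, and 0 and 0.0241 CPM in BKO against 4.62 and 0 in its controls. Anks4b, the gene of a scaffold protein of brush borders, had 37.6 and 72.4 CPM in EKO against 26.5 and 36.3 in its controls, and 0.127 and 0.0241 CPM in BKO against 12.1 and 0 in its controls. Both were near 0 in 3 of the 4 MIP1-CreERT libraries, and BKO control replicate 1 lay between. Abca14, an ABC transporter gene of the same neighbourhood, had the opposite arrangement, with 0.482 and 1.87 CPM in EKO against 0.453 and 0.418 in its controls, and 23.3 and 23.6 CPM in BKO against 5.08 and 38.2 in its controls. The fitted differences of effects, 7.64 for Tmem159 and 7.09 for Anks4b, were -1.50 and -3.43 without BKO control replicate 1. The label of that library gives a floxed Sirt6 allele, while BKO, with both alleles floxed, had values near 0. The cause was not tested.

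Krtap13-1, a hair keratin associated protein gene, had 0 reads in all 4 Ngn3-Cre libraries, and 32.1 and 31.6 CPM in BKO against 5.23 and 6.96 in its controls. BKO was above its controls without overlap, and with 0 reads in both groups of the other model no difference of effects can be given.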
